A study of Mus musculus with 8 samples.

Results

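Genes of antibody gene assembly, Rag1, Rag2, Dntt, Xrcc4, Lig4, Prkdc, Xrcc5, Xrcc6, Dclre1c and Nhej1, were followed in bone marrow B cells that received estrogen or vehicle under hypoxia. They were chosen by name, for their place in V(D)J recombination and in the joining of broken DNA ends. Earlier results of these data were known at that choice. The members make up 10 of the 46983 genes in the count table. All 10 were abundant enough to be tested among 15175 genes. None differed between the groups past an adjusted p of 0.05, and neither did any other gene tested (0 of 15175, 0%). No 95% interval of a member's difference reached 2-fold in either direction. Nhej1, the smallest in reads, was the only member whose Estrogen and Vehicle libraries did not overlap, at 4.20 ± 0.27 CPM (counts per 1000000 reads of the scaled library) in Estrogen and 5.83 ± 1.45 CPM in Vehicle (SD, n = 4 each), where 1.67% of all genes tested did not overlap. This held with TMM scaling and not with library totals, by which no member was apart.

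The study asked which genes estrogen regulates in B cells of the bone marrow under low oxygen. The 8 libraries came from the bone marrow of wild-type (WT) mice, whose B cells were collected by magnetic sorting. The Estrogen group (n = 4) was treated with estrogen and the Vehicle group (n = 4) with vehicle, and both were kept under hypoxia, so that no comparison with normal oxygen was possible here. No text in the sources ties the libraries of a group to separate animals or cultures. The sex-linked reads given below bear on this for a single Vehicle library. A p-value here thus sets a difference against a library-to-library spread that can be partly technical. A single dose of estrogen was used, per the study's text, and the labels give no age or sex.

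V(D)J recombination builds the variable part of each antibody gene from separate segments and takes place in B cell precursors of the bone marrow, pro-B and pre-B cells. RAG1 and RAG2, the subunits of the recombinase, bind signal sequences beside the segments and cut the DNA, leaving blunt signal ends and coding ends sealed as hairpins. Ku, the pair of XRCC5 (Ku80) and XRCC6 (Ku70), binds the ends, the kinase DNA-PKcs (Prkdc) activates the nuclease Artemis (Dclre1c) to open the hairpins, terminal transferase (Dntt) adds bases without a template, and DNA ligase IV (Lig4) with XRCC4 and XLF (Nhej1) seals the joint. The end-joining proteins act in every cell that repairs double-strand breaks, whereas Rag1, Rag2 and Dntt are used by lymphoid precursors.

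The libraries held between 30181834 and 39088597 counted reads, and 3 reads, taken as the floor of detection, were worth between 0.0779 and 0.102 CPM. Floors cover counting error only. Markers of the B lineage were abundant in all 8 libraries, with a sum of 6576 to 10254 CPM in Estrogen and of 8164 to 11607 CPM in Vehicle. Markers of other marrow cells were present as well, none of them at 0 in all libraries. The summed markers of neutrophils were at 3135 to 8997 CPM in Estrogen and at 3060 to 8592 CPM in Vehicle, those of monocytes and macrophages at 2984 to 4855 CPM in Estrogen and at 2981 to 3723 CPM in Vehicle, and those of plasmacytoid dendritic cells at 1811 to 2835 CPM in Estrogen and at 1579 to 2091 CPM in Vehicle. In bulk RNA, fewer cells of a type and less RNA per cell cannot be told apart. Vehicle 3 stood apart from the rest, with 3540 reads of the Y-linked gene Ddx3y against at most 20 in any other library. Its Xist was at 2.39 CPM against 470 to 1440 CPM elsewhere. By these reads Vehicle 3 was male material and the other libraries were female or nearly so. Vehicle 3 thus came from a different animal or animals than the rest of its group. Whether the other libraries came from separate animals cannot be read from sex-linked genes. For Rag1, Rag2, Dntt, Prkdc, Dclre1c, Nhej1 and the ratio of Rag1 to Rag2, the difference is also given without Vehicle 3.

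The promoters of 5 members are shown because the agents in this experiment act through transcription factors that read short DNA words: the estrogen receptor binds paired copies of AGGTCA, and HIF-1, the factor of the hypoxia response, binds ACGTG or GCGTG. Rag1 and Rag2 are shown as neighbouring genes for both subunits of the recombinase, Xrcc6 and Xrcc5 as the genes for both subunits of Ku, and Nhej1 as the member whose groups did not overlap. The sequences are from RefSeq on GRCm38.p6, run 5′ to 3′ along the gene's strand and cover the 250 bases before and 50 bases after the start of the transcript. Capitals mark these 3 words and the E-box, CANNTG, the word read by early B cell factors such as E2A, in either orientation. Where words overlap, the capitals run on from one to the next. The windows lie at chr2:101649483-101649782 on the minus strand (Rag1), chr2:101624462-101624761 on the plus strand (Rag2), chr15:82016119-82016418 on the plus strand (Xrcc6), chr1:72307171-72307470 on the plus strand (Xrcc5) and chr1:75125177-75125476 on the minus strand (Nhej1). The RefSeq start of Xrcc6 lies inside the span that GENCODE gives the gene.
Rag1: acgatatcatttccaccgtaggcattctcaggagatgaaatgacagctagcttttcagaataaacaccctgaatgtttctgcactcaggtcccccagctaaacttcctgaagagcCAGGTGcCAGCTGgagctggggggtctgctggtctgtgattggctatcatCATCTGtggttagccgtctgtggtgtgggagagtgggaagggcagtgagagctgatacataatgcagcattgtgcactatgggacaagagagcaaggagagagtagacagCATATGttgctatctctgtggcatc
Rag2: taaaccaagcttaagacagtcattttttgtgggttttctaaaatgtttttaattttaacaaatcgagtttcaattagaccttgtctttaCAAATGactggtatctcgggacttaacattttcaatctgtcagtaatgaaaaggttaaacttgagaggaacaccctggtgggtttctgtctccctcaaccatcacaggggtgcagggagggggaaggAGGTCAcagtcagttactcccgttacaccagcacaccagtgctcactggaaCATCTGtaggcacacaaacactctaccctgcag
Xrcc6: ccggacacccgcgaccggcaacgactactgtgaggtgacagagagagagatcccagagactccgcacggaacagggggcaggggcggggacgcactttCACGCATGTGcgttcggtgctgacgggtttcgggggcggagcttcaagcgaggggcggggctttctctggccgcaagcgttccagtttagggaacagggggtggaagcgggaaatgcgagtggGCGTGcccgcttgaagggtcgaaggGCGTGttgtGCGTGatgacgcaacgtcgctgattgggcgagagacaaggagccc
Xrcc5: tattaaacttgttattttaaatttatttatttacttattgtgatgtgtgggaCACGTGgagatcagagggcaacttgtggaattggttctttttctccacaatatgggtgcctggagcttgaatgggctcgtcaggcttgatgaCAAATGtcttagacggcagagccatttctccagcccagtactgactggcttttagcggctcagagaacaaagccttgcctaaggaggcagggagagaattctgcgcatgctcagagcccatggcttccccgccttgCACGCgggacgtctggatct
Nhej1: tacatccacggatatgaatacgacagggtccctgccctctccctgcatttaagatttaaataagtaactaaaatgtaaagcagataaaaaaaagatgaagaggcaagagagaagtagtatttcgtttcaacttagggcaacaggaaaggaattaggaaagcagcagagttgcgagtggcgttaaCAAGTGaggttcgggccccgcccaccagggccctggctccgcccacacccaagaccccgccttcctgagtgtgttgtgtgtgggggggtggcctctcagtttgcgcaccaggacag

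The full estrogen response element, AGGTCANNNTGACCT, was found in none of the windows of the 9 members that RefSeq promoters were matched to, and in 0.02% of the 32544 mouse promoters searched in the same way. A single AGGTCA stood in the Rag2 window, 34 bases before the start, and in no other member, while 16.25% of all promoters held one. The Rag1 window had 4 E-boxes, the first of them CAGGTG, 135 bases before the start, and the Dntt window had 3. E-boxes also stood in the windows of Rag2, Xrcc5, Xrcc6, Dclre1c and Nhej1 and in both Lig4 windows, but not in that of Xrcc4. At least 1 E-box is found in 72.3% of promoters, a share that is no measure for their number in a window. ACGTG stood 197 bases before the start of Xrcc5, within the E-box CACGTG, and 191 bases before that of Dclre1c, where 19.71% of promoters have the word. GCGTG occurred 4 times in the Xrcc6 window, once of these in the reverse orientation, and once, also reversed, in that of Xrcc5, against 32.58% of promoters with at least 1. The Xrcc6 window also had 3 GC boxes (GGGCGG, in 35.88% of promoters), Xrcc4 had 3 and Nhej1 had 2. The GC box also stood in the Dclre1c window and in the second of the 2 Lig4 windows. Rag1, Rag2, Dntt, Xrcc5 and the first Lig4 window had none. The word TATAAA (13.57% of promoters) was in none of the windows, and Prkdc was not among the promoters matched. These are matches of letters, and binding was not measured here.

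Levels of different genes were compared per kilobase (kb) of merged exons, as annotated on GRCm38, the build of all positions given here. Rag1 was the most abundant member, at 123 ± 19.3 CPM per kb in Estrogen and 129 ± 31.0 CPM per kb in Vehicle, and over the 8 libraries 97.6% of 15118 genes ranked by this measure were below it. Xrcc6 came next with a mean of 73.9 CPM per kb over the 8 libraries, and Dntt followed with 32.3 CPM per kb. Lig4 (15.3 CPM per kb) and Rag2 (13.5 CPM per kb) came after these with overlapping ranges, although Lig4 was above Rag2 in 8 of 8 libraries. The lower members were Dclre1c (6.13 CPM per kb), Xrcc5 (5.26 CPM per kb), Nhej1 (4.49 CPM per kb), Prkdc (2.93 CPM per kb) and Xrcc4 (2.73 CPM per kb), and in this part of the order each gene's range over the libraries overlapped that of the next. The upper neighbours, Rag1 and Xrcc6, Xrcc6 and Dntt, and Dntt and Lig4, did not overlap.

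**Figure D1:**
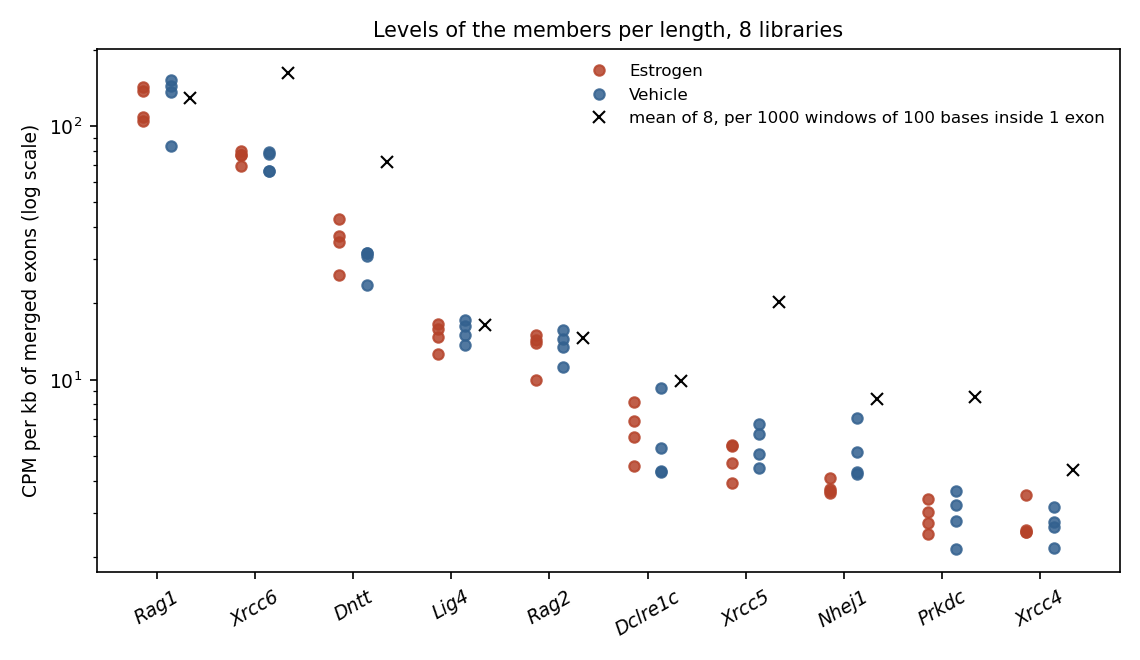
Level of each gene in CPM per kb of merged exons on a log axis, with a point per library (Estrogen left, Vehicle right, 4 each). A cross marks the mean of 8 libraries when the length is counted as 100-base windows of the longest transcript inside 1 exon. Rag1 leads at a mean of 126 CPM per kb by merged exons, while Xrcc6 leads at 162 by the crosses, and Xrcc5 moves up most, to 20.2.

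This order depended on how length was counted. The aligner named by the submitters, Bowtie 0.12.2, does not split a read over an exon junction, and the share of 100-base windows of the longest transcript that cross a junction was 1.2% in Rag1, 4.9% in Rag2 and 2.0% in Lig4, genes with most of their length in a single large exon. It was 36.0% in Xrcc6, 49.6% in Dntt, 64.0% in Prkdc with its 86 exons and 73.0% in Xrcc5 with its 21 exons. Windows were counted on the longest transcript, so they change the transcript as well as leaving out junctions. By the length of that transcript alone, Rag1 was at 126 and Xrcc6 at 100 CPM per kb. With length counted as 100-base windows inside 1 exon, an alternative added after the data were seen, Xrcc6 was above Rag1 (162 against 129). By it Xrcc5 reached 20.2, above Lig4 (16.4) and Rag2 (14.7). With 50-base windows, also added then, Rag1 stayed first (128 against 124 for Xrcc6) and Xrcc5 was at 8.81, below Lig4 (16.1) and Rag2 (14.1). The read length is not given in the sources used here, so neither window is preferred. The part of the junctions in the levels was not tested further, and differences between the groups compare each gene with itself.

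Neither recombinase gene passed the test. Rag1 stood at 937, 691, 910 and 719 CPM in Estrogen 1 to 4 and at 1003, 950, 550 and 899 CPM in Vehicle 1 to 4. Vehicle 1 was the highest and Vehicle 3 the lowest of all 8, so the Estrogen libraries lay inside the Vehicle range. Rag1 lies at chr2:101638282-101649501 on the minus strand. The means were 814 ± 127 CPM in Estrogen and 850 ± 205 CPM in Vehicle, with a log2 difference of -0.06 ± 0.20 (SE; 95% interval -0.50 to 0.38; edgeR adjusted p = 0.936). Without Vehicle 3 the log2 difference of Rag1 was -0.21 ± 0.14 (edgeR unadjusted p = 0.179). Across all genes edgeR called 0 of 15175 at the adjusted threshold (0%) and 534 had an unadjusted p under 0.05 (3.52%), while the DESeq2 Wald test called 1, which was no member.

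Rag2, the partner of Rag1 on the opposite strand of the same locus (chr2:101624718-101632529), was at 51.6, 34.2, 47.8 and 49.3 CPM in Estrogen 1 to 4 and at 53.7, 49.7, 38.3 and 46.1 CPM in Vehicle 1 to 4. A single library was low in each group, Estrogen 2 and Vehicle 3, and the other 6 were close to each other. The log2 difference was -0.04 ± 0.15 (95% interval -0.38 to 0.30; edgeR adjusted p = 0.947). Without Vehicle 3 it was -0.11 ± 0.15. Per kb, Rag1 was 9.30 times as abundant as Rag2 on average, between 7.43 and 10.5 times in the 8 libraries.

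The balance between both subunits did not differ beyond the spread of the libraries. For every read of Rag2 there were 18.2, 20.2, 19.0 and 14.6 reads of Rag1 in Estrogen 1 to 4 and 18.7, 19.1, 14.3 and 19.5 in Vehicle 1 to 4. Estrogen 4 and Vehicle 3 had the lowest ratios, 1 library of each group. The mean log2 ratio differed by 0.0070 (exact two-sided permutation test, p = 0.943, adjusted p = 0.943 over 3 ratios, where the smallest p of 4 against 4 libraries is 0.0286). Without Vehicle 3 the difference was -0.096.

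B230118H07Rik, a protein-coding gene whose transcripts reach both recombinase genes, shares 80 exon bases with Rag1 on the same strand and 208 with Rag2 on the other, and as the sources do not state how such reads were counted, reads in these bases cannot be assigned to 1 gene. It was at 8.21 ± 1.37 CPM in Estrogen and 7.18 ± 1.06 CPM in Vehicle, and its shared bases are 1.21% of the exon bases of Rag1 and 6.07% of those of Rag2.

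**Figure D2:**
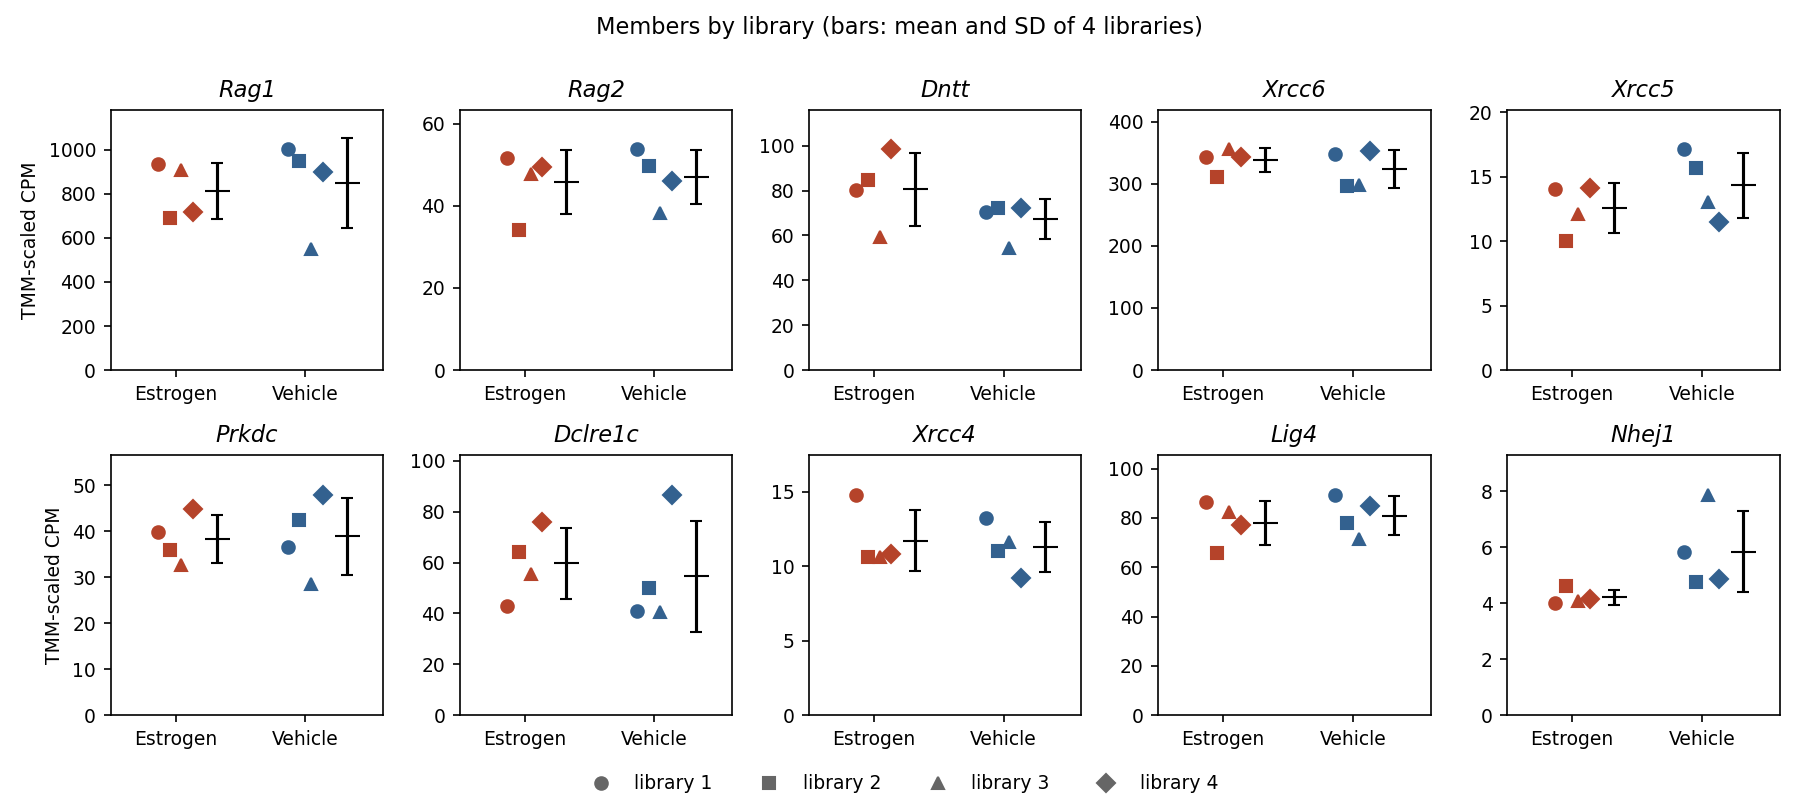
TMM-scaled CPM of each of the 10 genes in each library, Estrogen left and Vehicle right, with the mean and SD of 4 libraries as bars and each vertical axis starting at 0. The Estrogen and Vehicle points overlap in 9 genes; in Nhej1 the Estrogen points lie between 4.01 and 4.60 CPM and the Vehicle points between 4.75 and 7.87 CPM.

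Dntt, the gene for terminal transferase (chr19:41029275-41059525), had the highest mean difference of the members, and that difference did not pass the test. It was at 80.2, 84.8, 59.2 and 98.4 CPM in Estrogen 1 to 4 and at 70.5, 72.4, 54.3 and 72.2 CPM in Vehicle 1 to 4. In 3 of 4 Estrogen libraries the level was above that of every Vehicle library, while Estrogen 3 was below 3 of the 4 Vehicle libraries. The means were 80.7 ± 16.3 CPM in Estrogen and 67.3 ± 8.75 CPM in Vehicle, a log2 difference of 0.26 ± 0.16 (95% interval -0.09 to 0.61; edgeR adjusted p = 0.860).

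The result for Dntt depended on single libraries. Without Vehicle 3 the log2 difference was 0.18 ± 0.16, without Estrogen 3 the log2 difference was 0.39 ± 0.13 (edgeR unadjusted p = 0.0185), and without Estrogen 4 it was 0.16 ± 0.16. Plasmacytoid dendritic cells, an innate cell of the marrow, can carry lymphoid transcripts such as Dntt and rearranged D-J segments in the mouse. Their 8 markers were higher on average in Estrogen for 6 and lower for 2, and none passed the adjusted threshold. Siglech, a defining surface receptor of these cells, was at 770, 1196, 762 and 1401 CPM in Estrogen 1 to 4 and at 523, 554, 608 and 933 CPM in Vehicle 1 to 4 (edgeR unadjusted p = 0.0274, adjusted p = 0.860). In Estrogen, the library with the most Siglech also had the most Dntt and the library with the least Siglech had the least Dntt, while in Vehicle the library with the most Siglech, Vehicle 4, had no more Dntt than Vehicle 2, and Vehicle 3, the next in Siglech, had the least Dntt. The part of these cells in the Dntt values was not tested.

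Relative to Rag1, Dntt had 0.0856, 0.123, 0.0650 and 0.137 reads per read in Estrogen 1 to 4 and 0.0704, 0.0762, 0.0987 and 0.0803 in Vehicle 1 to 4. Estrogen spanned the whole range of the ratio, with both its lowest and its highest value. The mean log2 ratio differed by 0.29 (exact two-sided permutation test, p = 0.314, adjusted p = 0.471).

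**Figure D3:**
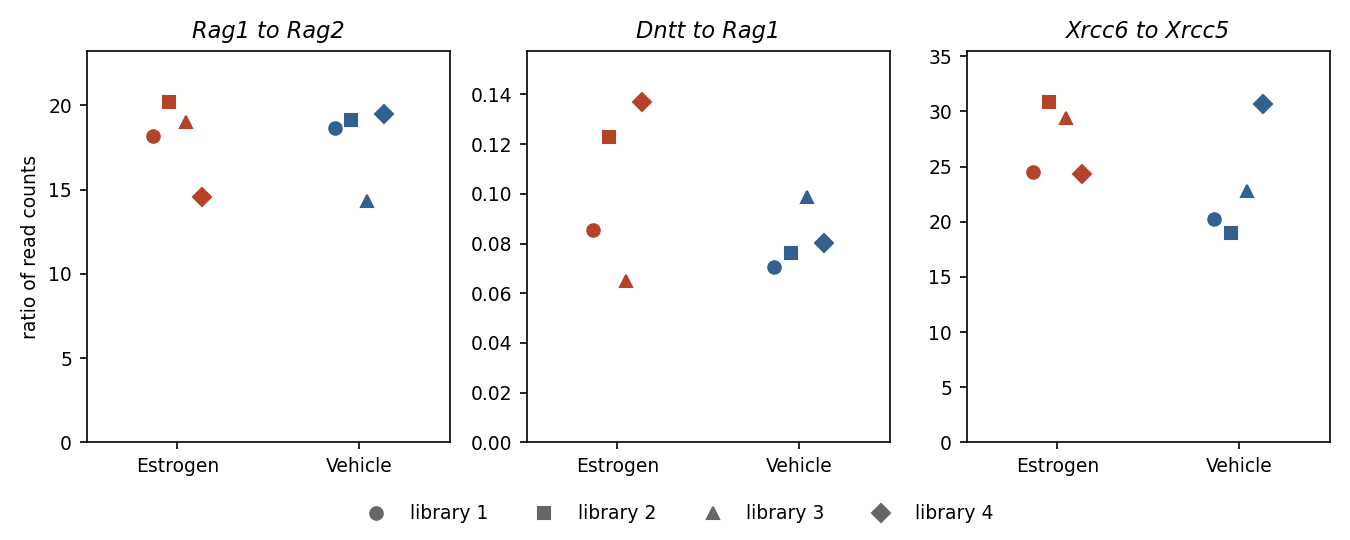
Ratio of read counts within each library for Rag1 to Rag2, Dntt to Rag1 and Xrcc6 to Xrcc5, Estrogen left and Vehicle right, a marker per library and each axis starting at 0. The groups overlap in all 3 ratios; for Dntt to Rag1 the Estrogen libraries run from 0.0650 to 0.137 and the Vehicle libraries from 0.0704 to 0.0987.

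The genes of Ku differed from each other far more than between the groups. Xrcc6 (Ku70, chr15:81987835-82040085) was at 344, 310, 355 and 343 CPM in Estrogen 1 to 4 and at 347, 296, 297 and 353 CPM in Vehicle 1 to 4. Vehicle 2, Vehicle 3 and Estrogen 2 were the lower libraries and the other 5 were close together. The means were 338 ± 19.4 CPM in Estrogen and 324 ± 30.8 CPM in Vehicle, and the log2 difference of 0.06 ± 0.10 (95% interval -0.16 to 0.29; edgeR adjusted p = 0.883) had the narrowest interval of the 10. Desi1, on the opposite strand, overlaps 344 exon bases of Xrcc6 and was itself at 125 ± 5.78 CPM in Estrogen and 120 ± 12.8 CPM in Vehicle.

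Xrcc5 (Ku80, chr1:72307421-72394952) was at 14.0, 10.04, 12.1 and 14.1 CPM in Estrogen 1 to 4 and at 17.1, 15.6, 13.0 and 11.5 CPM in Vehicle 1 to 4. Vehicle 1 and Vehicle 2 were above all Estrogen libraries and Vehicle 4 was below 3 of them. The log2 difference was -0.19 ± 0.17 (95% interval -0.57 to 0.19; edgeR adjusted p = 0.860). With each library left out in turn it ran from -0.28 without Vehicle 4 to -0.075 without Vehicle 1, and limma-voom with sample weights gave -0.31 (limma unadjusted p = 0.0387, adjusted p = 0.321).

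Although the proteins work as a pair, 24.5, 30.9, 29.4 and 24.3 reads of Xrcc6 were counted per read of Xrcc5 in Estrogen 1 to 4, against 20.3, 18.9, 22.8 and 30.7 in Vehicle 1 to 4. In 3 of 4 Vehicle libraries the ratio was under that of every Estrogen library, and Vehicle 4 was near the top. The mean log2 ratio differed by 0.25 (exact two-sided permutation test, p = 0.171, adjusted p = 0.471). With each library left out in turn it differed by 0.16 to 0.40, the highest without Vehicle 4. Per kb of merged exons Xrcc6 was 14.4 times as abundant as Xrcc5. By 100-base windows of the longest transcript inside 1 exon, the means were 162 and 20.2.

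Prkdc, the gene for the catalytic subunit of DNA-PK that is mutated in scid mice (chr16:15637866-15842235), was at 39.8, 36.0, 32.6 and 44.8 CPM in Estrogen 1 to 4 and at 36.6, 42.5, 28.5 and 48.0 CPM in Vehicle 1 to 4. Vehicle had both the highest and the lowest library. The log2 difference was -0.02 ± 0.17 (95% interval -0.39 to 0.35; edgeR adjusted p = 0.976). Without Vehicle 3 it was -0.13 ± 0.14. Mcm4, a subunit of the replicative helicase, starts 466 bases from Prkdc on the other strand and was at 49.4 ± 5.70 CPM in Estrogen and 59.0 ± 7.59 CPM in Vehicle (log2 difference -0.26 ± 0.12, edgeR adjusted p = 0.860).

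Dclre1c, the gene for Artemis (chr2:3424131-3464130), had the largest standard error of the members. It was at 42.8, 64.2, 55.7 and 76.1 CPM in Estrogen 1 to 4 and at 40.8, 50.2, 40.4 and 86.8 CPM in Vehicle 1 to 4. The fourth library was the highest in either group, and Vehicle 1 and Vehicle 3 were the lowest of all. The log2 difference was 0.13 ± 0.26 (95% interval -0.46 to 0.72; edgeR adjusted p = 0.905), the widest interval of the 10. It depended on Vehicle 4, without which it was 0.45 ± 0.18 (edgeR unadjusted p = 0.0368, adjusted p = 0.354), and on Estrogen 4, without which it was -0.0029 ± 0.28. Without Vehicle 3 it was 0.026 ± 0.28. Suv39h2, a histone methyltransferase gene on the opposite strand, overlaps 357 exon bases of Dclre1c, 3.83% of its exons, and was at 5.28 ± 1.32 CPM in Estrogen and 4.61 ± 1.54 CPM in Vehicle.

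Of the ligation genes, Lig4 and Xrcc4 overlapped between the groups and Nhej1 did not. Lig4 (chr8:9969049-9977686) was at 86.3, 65.8, 82.4 and 77.1 CPM in Estrogen 1 to 4 and at 89.4, 77.8, 71.3 and 85.0 CPM in Vehicle 1 to 4. Estrogen 2 was the lowest and Vehicle 1 the highest library, and the log2 difference was -0.05 ± 0.11 (95% interval -0.30 to 0.19; edgeR adjusted p = 0.905). Abhd13, which starts 21 bases from Lig4 on the other strand, was at 68.2 ± 7.85 CPM in Estrogen and 70.9 ± 3.39 CPM in Vehicle, with a log2 difference of -0.06 ± 0.10.

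Xrcc4, the scaffold that holds ligase IV (chr13:89774027-90089608), was at 14.8, 10.6, 10.6 and 10.8 CPM in Estrogen 1 to 4 and at 13.3, 11.0, 11.6 and 9.20 CPM in Vehicle 1 to 4. Estrogen 1 stood above the other 7 libraries, and the remaining Estrogen libraries lay inside the Vehicle range. The log2 difference was 0.05 ± 0.17 (95% interval -0.32 to 0.42; edgeR adjusted p = 0.935). Tmem167, on the opposite strand, overlaps 112 exon bases of Xrcc4 and was at 86.9 ± 6.04 CPM in Estrogen and 90.0 ± 3.30 CPM in Vehicle.

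Nhej1, the gene for XLF (chr1:74967139-75125200), was at 4.01, 4.60, 4.06 and 4.15 CPM in Estrogen 1 to 4 and at 5.84, 4.75, 7.87 and 4.85 CPM in Vehicle 1 to 4. All Estrogen libraries were below all Vehicle libraries, Estrogen 2 and Vehicle 2 being the closest, and Vehicle 3 was the highest by a wide gap. These levels rest on 118, 163, 140 and 131 reads in Estrogen 1 to 4 and 194, 183, 280 and 162 reads in Vehicle 1 to 4. Among all tested genes, 1.67% did not overlap between the groups, 0.896% with Estrogen higher and 0.771% with Estrogen lower, and a single gene of 10 is too few to be set against these shares.

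The log2 difference of Nhej1 was -0.47 ± 0.20 (95% interval -0.91 to -0.03; edgeR unadjusted p = 0.0387, adjusted p = 0.860), and it was rank 373 of 15175 genes by p. Without Vehicle 3 it was -0.28 ± 0.18 (edgeR unadjusted p = 0.150). With libraries scaled by their totals alone Nhej1 overlapped between the groups, as did all other members, while with the libraries scaled to B lineage markers, which moved the median of all genes to 0.33, its log2 difference was -0.11 and its groups overlapped.

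**Figure D4:**
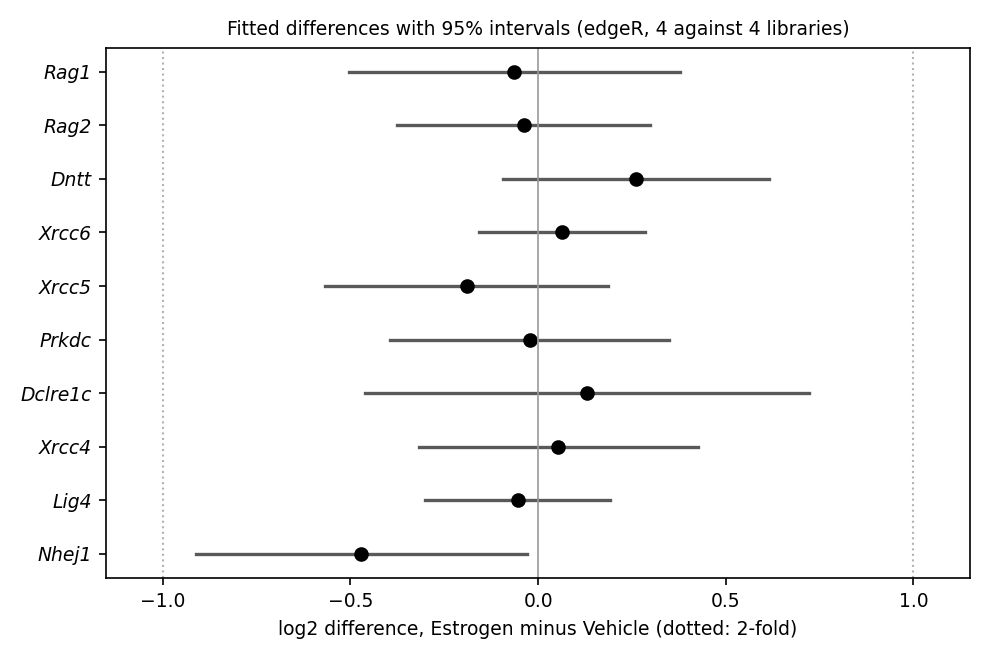
Fitted log2 difference, Estrogen minus Vehicle, of each gene (point) with its 95% interval (line) from the edgeR fit of 4 against 4 libraries, with dotted lines at a 2-fold difference. All 10 intervals stay inside the dotted lines, and only that of Nhej1, from -0.91 to -0.03, leaves out 0.

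Counted together, 4 members were higher on average in Estrogen and 6 were lower. Their median log2 difference was -0.03, where the median of all 15175 genes was -0.0054, with 7417 higher and 7758 lower. The members did not all vary alike over the libraries. Rag2 and Lig4 were close in pattern, with a root mean square difference of 0.11 between their centred log2 CPM over the 8 libraries. Lig4 and Xrcc6 were at 0.097, where Xrcc6 itself varied little, between -0.15 and 0.11 around its mean. Rag1 and Rag2 were at 0.18, and Rag1 and Nhej1 at 0.51. In the last pair Vehicle 3 was at -0.57 in Rag1 and 0.68 in Nhej1, so that distance rests largely on 1 library. These distances are descriptions over 8 libraries that share the group means and depth.

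**Figure D5:**
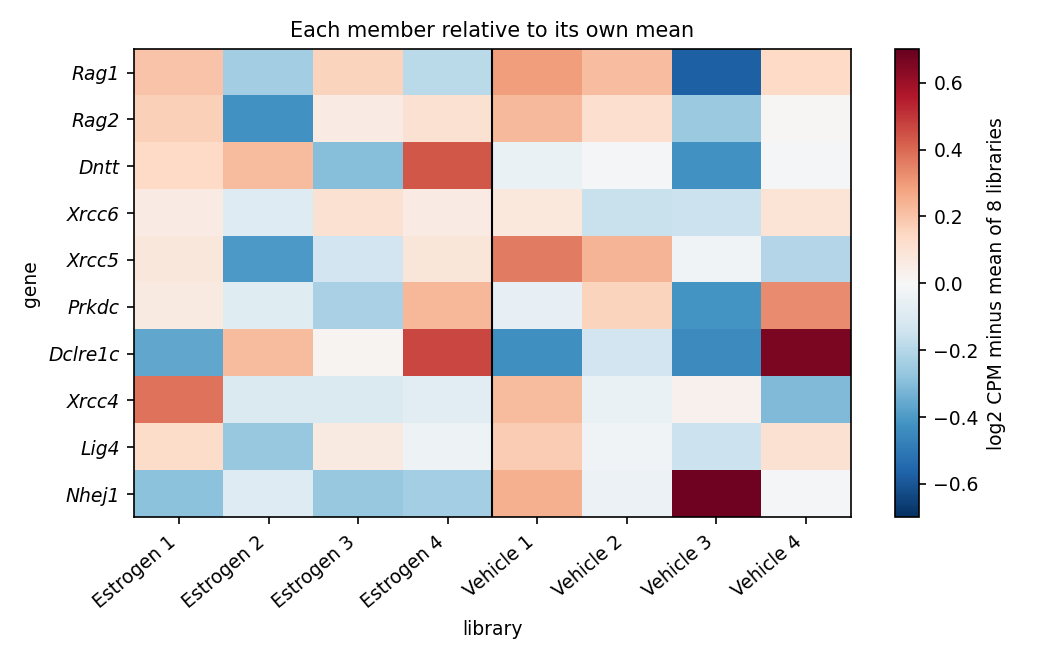
Log2 CPM of each gene minus its mean over the 8 libraries, by library, with Estrogen left and Vehicle right of the line, red above and blue below the mean. Vehicle 3 is at -0.57 in Rag1, -0.42 in Dntt and -0.42 in Prkdc but at 0.68 in Nhej1, and Vehicle 4 is at 0.66 in Dclre1c.

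Vehicle 3, the library with Y-linked reads, was the lowest of all 8 in Rag1, Dntt, Prkdc and Dclre1c, the last by a narrow margin, and the highest of all in Nhej1. In Rag2 and Lig4 it was the lowest of the Vehicle libraries. Its summed markers of B cell precursors, at 1093 CPM, were below those of the other 7 libraries (1356 to 1655 CPM), and its summed neutrophil markers were at 8592 CPM where the other Vehicle libraries had 3060 to 4196 CPM. Of the Estrogen libraries, Estrogen 2 had 8997 CPM of neutrophil markers and was the lowest in Rag1, Rag2, Xrcc4, Xrcc5, Xrcc6 and Lig4, whereas Estrogen 3 had 7563 CPM and was the highest in Xrcc6 and above Estrogen 2 and 4 in Rag1 and Lig4. Their part in these values was not tested.

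The genes nearest to Rag1 in pattern, by the smallest root mean square difference of centred log2 CPM among 12961 genes, were N4bp2 (0.073), 4933404O12Rik (0.079) and Sorcs2 (0.080). Those nearest to Rag2 were Lipo3 (0.053), Zfp94 (0.060) and Zkscan17 (0.067). Those nearest to Dntt were Tnik (0.099), Tmem260 (0.105) and Angel1 (0.106). None of these 9 was a member.

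The steps around the members were read from lists of related genes. In all of these 0 genes passed the adjusted threshold in either direction, as 0 of all 15175 genes tested did. Of 10 cofactors and turnover factors of the recombinase, 6 were higher and 4 lower on average in Estrogen, and the median log2 difference was 0.02. Hmgb2, which bends DNA for the recombinase, was at 214 ± 22.6 CPM in Estrogen and 250 ± 37.5 CPM in Vehicle (log2 difference -0.22 ± 0.13). Skp2, the ligase subunit that marks RAG2 for destruction in the cell cycle, was at 8.89 ± 1.81 CPM in Estrogen and 7.26 ± 1.52 CPM in Vehicle (0.29 ± 0.21). Of 16 transcription factors of early B cells and of Rag expression, 6 were higher and 10 lower on average, with a median of -0.05. The smallest p-values among them belonged to Foxp1 (498 ± 76.5 CPM in Estrogen, 591 ± 84.9 CPM in Vehicle), Bcl11a (161 ± 20.6 CPM in Estrogen, 185 ± 22.1 CPM in Vehicle) and Pax5 (888 ± 139 CPM in Estrogen, 1042 ± 137 CPM in Vehicle). Foxo1, an activator of the Rag locus, was at 322 ± 30.7 CPM in Estrogen and 334 ± 21.3 CPM in Vehicle.

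Of 11 genes of end processing and accessory end joining, 3 were higher and 8 lower on average in Estrogen, and the median log2 difference was -0.07. Polm, the polymerase mu gene and a relative of Dntt, was at 194, 155, 217 and 159 CPM in Estrogen 1 to 4 and at 208, 210, 210 and 212 CPM in Vehicle 1 to 4. The Vehicle libraries were within 4 CPM of each other, and Estrogen 2 and 4 were well below them while Estrogen 3 was above. Its log2 difference was -0.21 ± 0.12 (edgeR adjusted p = 0.860). Of 15 genes tested of the response to double-strand breaks, 5 were higher and 10 lower on average, with a median of -0.05. Among these Mad2l2, a subunit of shieldin, was at 13.1 ± 1.13 CPM in Estrogen and 15.0 ± 0.74 CPM in Vehicle, and Atm, the kinase that signals the breaks, was at 56.3 ± 5.20 CPM in Estrogen and 54.9 ± 17.3 CPM in Vehicle.

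No gene of the other routes of repair was called either, as 0 of 15175 genes were called in the whole fit. In the alternative end-joining list 1 of 7 was higher on average in Estrogen, Lig3, the gene for DNA ligase III, at 33.2 ± 2.53 CPM in Estrogen and 28.2 ± 4.63 CPM in Vehicle (log2 difference 0.24 ± 0.13, edgeR adjusted p = 0.860), and the list's median was -0.02. In homologous recombination 9 of 14 were higher and 5 lower on average, with a median of 0.02, and the smallest p was that of Blm, a helicase gene, at 15.6 ± 1.76 CPM in Estrogen and 13.2 ± 1.51 CPM in Vehicle (edgeR adjusted p = 0.860).

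Markers of the stages that use the recombinase were given beside these values. Of 12 markers of B cell precursors, 10 were higher and 2 lower on average in Estrogen, with a median of 0.07, and 1 had an unadjusted p under 0.05. This was Il2ra (CD25, a surface marker of pre-B cells), at 91.9, 57.0, 95.01 and 53.3 CPM in Estrogen 1 to 4 and at 166, 158, 103 and 77.8 CPM in Vehicle 1 to 4. Vehicle 4 lay among the Estrogen libraries and the other 3 Vehicle libraries were above all of them (log2 difference -0.77 ± 0.28, edgeR adjusted p = 0.860). Il7r, the receptor that mouse pro-B cells need to grow, was at 281 ± 70.5 CPM in Estrogen and 215 ± 65.1 CPM in Vehicle, and Flt3, of earlier progenitors, at 118 ± 41.2 CPM in Estrogen and 80.4 ± 29.2 CPM in Vehicle. Il2ra, Flt3 and Il7r had the smallest p-values of the list. Igll1, Vpreb1 and Vpreb2 of the same list had log2 differences of 0.07 ± 0.18, -0.04 ± 0.25 and 0.0038 ± 0.29. All 8 markers of the B lineage and all 10 of mature B cells were lower on average in Estrogen, with medians of -0.23 and -0.49, and 0 of either list passed the adjusted threshold. The part of these shifts in the members' values was not tested.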

How the data were processed

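RNA of sorted bone marrow B cells (4 Estrogen and 4 Vehicle libraries, all under hypoxia) was extracted with Trizol and prepared with a TruSeq kit. The count table, as the authors deposited it, holds unscaled reads by Ensembl gene and library. CASAVA, Bowtie 0.12.2 and mm10 are named in the submitters' processing notes. The counter, the annotation release, the use of strand and the handling of multiply mapped reads were among the points not given in the sources used here. Columns were assigned to samples by the labels' descriptions and to groups by treatment.

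Symbols, exons and lengths were from GENCODE M21 on GRCm38 (46488 of 46983 identifiers matched, 98.9%), and promoters from RefSeq. In R 4.3.3, edgeR 4.0.16 filtered genes by filterByExpr with the groups given, scaled by TMM and tested Estrogen against Vehicle by its robust quasi-likelihood test (two-sided; p adjusted by Benjamini-Hochberg over 15175 genes; threshold 0.05). The test was run on simulated data before use. CPM are TMM-scaled, given as mean ± SD, and log2 differences are fitted ± SE. Ratios within a library (0.5 reads added) were compared by an exact permutation test over 70 regroupings. Centred log2 CPM used a prior count of 2.

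The 10 members and the other 17 lists (166 of 167 entries found) were chosen with earlier results of these data known. The text names all members, up to 3 genes of smallest p in each list, defining markers, the 3 genes nearest in pattern to Rag1, Rag2 and Dntt, and genes that overlap a member or start within 1000 bases. Foxo1, Atm, Siglech, Igll1, Vpreb1 and Vpreb2 were named for their role. Alternatives were DESeq2 1.42.0 size factors and Wald test, library totals, scaling to B lineage markers, other filters, limma 3.58.1 voom (also with sample weights), non-robust dispersions, a replicate block, each library left out, a threshold of 0.1, another pseudocount and other lengths. Python 3.11.15 with matplotlib 3.10.9 drew the figures.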

Additional observations from a re-analysis of the deposited data

Results flagged for a closer look

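In groups of 4 libraries, the gap of the highest or lowest library to its nearest neighbour was set against the range of the group (Dixon's test at 95%) for 26 groups, the 10 members, 3 ratios and both treatments. It was past the critical value in 3 of them, where chance gives about 5% of groups. Dntt in Vehicle 3 was at 54.3 CPM, below the other Vehicle libraries at 70.5 to 72.4 CPM. Xrcc4 in Estrogen 1 was at 14.8 CPM, above the other Estrogen libraries at 10.6 to 10.8 CPM. The ratio of Rag1 to Rag2 reads in Vehicle 3 was 14.3, below the other Vehicle libraries at 18.7 to 19.5. Vehicle 3, which has Y-linked reads, accounts for 2 of these 3 values.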

How the results depend on the processing

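No member passed the adjusted threshold in any of the 18 other fits. Dntt, Xrcc6 and Nhej1 kept their direction in 18 of 18, with log2 differences of 0.023 to 0.62, 0.036 to 0.39 and -0.55 to -0.11. Across all genes 0 were called as reported and 1 with the DESeq2 Wald test (Cd8b1, 0 members), 1 with limma-voom with sample weights (Cd8b1) and 1 with the replicate block (Tgm2), all 3 named after their values were seen. Genes with an unadjusted p under 0.05 numbered 534 as reported, 918 with scaling to B lineage markers, 936 with no filter, 2296 with sample weights and 227 to 2156 with a library left out, the lowest without Estrogen 2 and the highest without Vehicle 4. Scaling to B lineage markers moved the median of all genes to 0.33. By it Rag1 was at 0.23, Rag2 at 0.28, Lig4 at 0.26, Prkdc at 0.30 and Xrcc5 at 0.16, above 0 but all below that median. Xrcc4 did not overlap between the groups by this scaling, where 2.7% of all genes tested did not overlap. By library totals, which moved the median of all genes to 0.046, Rag2 was at 0.011 and Prkdc at 0.025, both below that median. With sample weights Xrcc4 was at -0.039. The cause of these sign changes was not tested.

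With each library left out, log2 differences ran from -0.21 to 0.044 (Rag1), -0.11 to 0.080 (Rag2), -0.098 to 0.021 (Lig4), -0.13 to 0.097 (Prkdc), -0.068 to 0.16 (Xrcc4) and -0.0029 to 0.45 (Dclre1c), all through 0, and the log2 ratio of Rag1 to Rag2 from -0.096 to 0.10. Same-numbered libraries of the groups deviated together at correlations of 0.67, -0.13, 0.080 and 0.55. Differently numbered libraries ran from -0.62 to 0.40. The sources state no pairing, and these values do not settle whether the numbers pair the samples. A fit with the replicate block gave 2175 genes and 2 members at an unadjusted p under 0.05, Dntt with a log2 difference of 0.25 and Nhej1 with -0.44. A p above the threshold with 4 libraries a group does not show that a member did not differ, and the intervals in the report give the sizes that these libraries leave possible.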
